A study of Mus musculus with 6 samples.

Results

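The dystrophin glycoprotein complex and its utrophin counterpart were examined through 8 genes: Dmd, Utrn, Dag1, Sgca, Sgcb, Sgcd, Sspn and Nos1. They were taken by name, as probe sets that the platform's annotation assigns to exactly 1 of these symbols. All 8 listed genes were found, with 1 probe set each, among 19752 named genes. The study concerned the effects of removing regulatory T cells from dystrophic muscle. RNA came from flash-frozen skeletal muscle of mdx mice, whose Dmd gene carries a point mutation that stops translation of dystrophin. The anti-CD25 group (3 samples) received the PC61 monoclonal antibody, which binds CD25, a receptor chain for interleukin-2 on the surface of regulatory T cells. The rat IgG group (3 samples) received a control antibody. Both antibodies were given 2 times, on days 17 and 20 of age. All animals are labelled mdx, male and 6 weeks old, which is day 42, whereas by the series' design text muscles were taken 7 days after dosing ended, on day 27. Both groups share the mdx mutation, and no muscle with intact dystrophin was compared here, so the values describe the antibody and not the loss of dystrophin.

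Dystrophin links cortical actin inside the muscle fibre to dystroglycan in the membrane, and dystroglycan binds laminin in the basement membrane outside. Sarcoglycans and sarcospan form a membrane subcomplex that steadies this link, and neuronal nitric oxide synthase is held under the membrane by dystrophin and the syntrophins. Without dystrophin protein the complex is lost from most of the membrane, although its other members are still transcribed. Utrophin, an autosomal relative of dystrophin found mainly at the neuromuscular and myotendinous junctions of adult muscle, is raised in dystrophic muscle and partly takes its place.

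Levels are log2 of the authors' RMA intensity, and differences are anti-CD25 minus rat IgG throughout. Nothing in the labels says that replicates are separate animals, so p-values measure the spread between these samples and precision is limited by having 6 arrays. Array medians were 149.8 to 151.5 intensity units. Upper quartiles ran from 8.67 log2 units on rat IgG 2 to 8.773 on anti-CD25 2. Lower quartiles ran from 5.68 on rat IgG 3 to 5.85 on rat IgG 1 and 2, so the arrays were matched less closely away from the median. As a check of the labelled tissue, 8 of 8 muscle fibre markers lay between 12.4 and 13.8 log2 units and above the upper quartile of every array. The T cell markers lay between 4.88 and 7.12, with Foxp3 at 6.48 ± 0.11 in the anti-CD25 group and 6.57 ± 0.13 in the rat IgG group (SD, n = 3 each). On the anti-CD25 1 and 2 and rat IgG 1 and 2 arrays Xist, the RNA of the inactive X chromosome, lay between 11.77 and 11.94. On anti-CD25 3 and rat IgG 3 it lay at 5.49 and 5.48, while the Y-linked Eif2s3y lay at 9.22 and 9.16 there and at 3.77 or below on the other 4 arrays. The label male thus goes against the values of 4 arrays, in equal number in each group. Rat IgG 3 also stood apart: across genes it correlated at 0.991 with both arrays of its own group and at up to 0.995 with the anti-CD25 arrays. For that reason, values within the arrays with high and with low Xist, or without single arrays, stand beside results that they turned or moved most.

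Differences between anti-CD25 and rat IgG were small in all 8 genes. The differences ran from -0.18 to 0.032 log2 units, with 6 genes lower and 2 higher on the anti-CD25 arrays. Their median was -0.041, beside -0.026 over all genes, of which 58.9% were lower. The sign of this median was not stable: it was 0.014 within the 4 arrays with high Xist, where the median of all genes was -0.036, -0.13 between the 2 with low Xist, and 0.0051 without anti-CD25 3. None of the 8 reached an adjusted p of 0.05 in limma, and 0 had an unadjusted p under 0.05, the smallest being 0.0732. Over all genes 0% passed at the adjusted threshold, 1240 genes (6.28%) had an unadjusted p under 0.05, and the smallest adjusted p was 0.7496. The 8 moderated 95% intervals of the fold, anti-CD25 over rat IgG, all lay between 0.773 and 1.17. Such intervals bound the differences and do not show that the genes were unchanged.

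**Figure D1:**
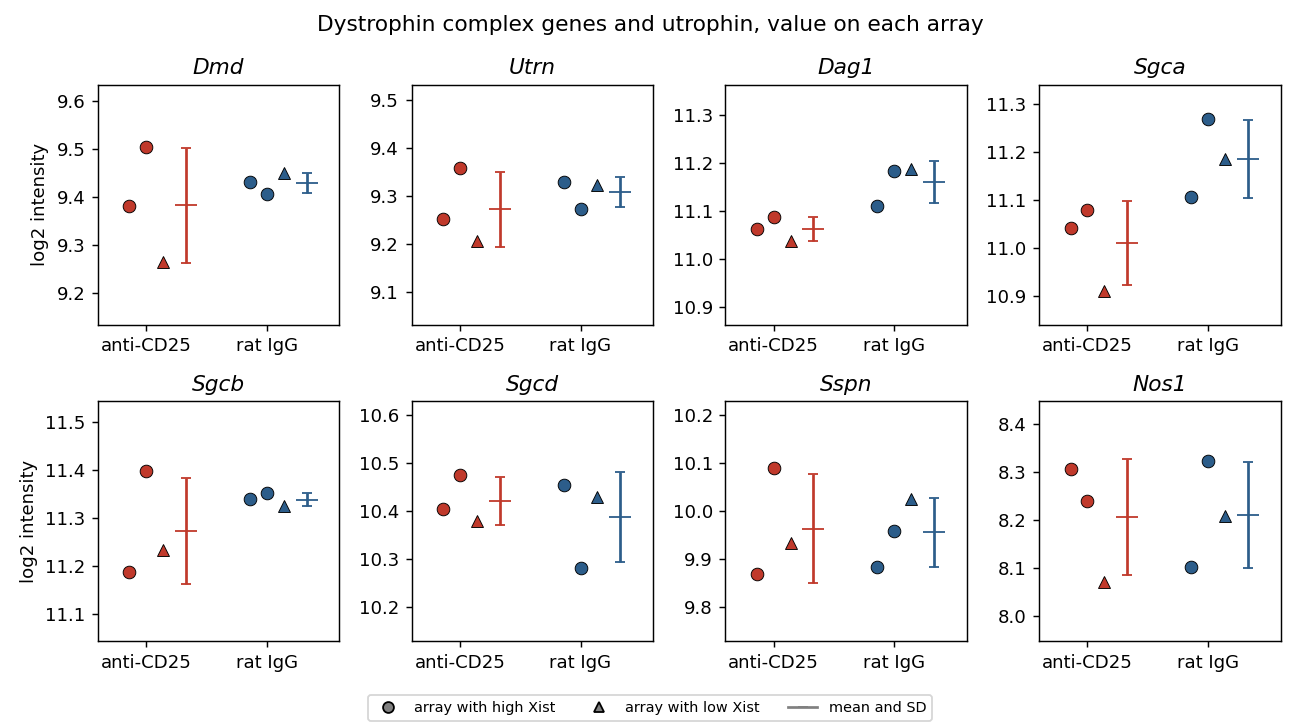
Log2 intensity (vertical axes, each spanning the same width) of the 8 genes on each array of the anti-CD25 and rat IgG groups, with group mean and SD beside the points. Circles are arrays with high Xist and triangles arrays with low Xist. The groups separate for Dag1 and Sgca and overlap for the other 6 genes.

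Dmd transcript was well above the upper quartile of every array in both groups. Dmd measured 9.38, 9.50 and 9.26 on the anti-CD25 1, 2 and 3 arrays, against 9.43, 9.41 and 9.45 on the rat IgG 1, 2 and 3 arrays. The rat IgG arrays lay inside the range of the anti-CD25 arrays, which held both the highest and the lowest value. The means were 9.38 ± 0.12 and 9.43 ± 0.021 (SD, n = 3 each, anti-CD25 first), a difference of -0.046 (SE 0.087, limma adjusted p = 0.9189). A point mutation leaves a transcript to be measured, so this level checks neither the genotype nor the amount of dystrophin protein. The direction rested on anti-CD25 3, without which the difference was 0.013. Dmd is X-linked, and its mean was 9.43 on the 4 arrays with high Xist and 9.36 on the 2 with low Xist. Anti-CD25 minus rat IgG was 0.023 within the first and -0.19 between the second. The lower mean of the low-Xist arrays came from anti-CD25 3, at 9.26, as rat IgG 3 lay at 9.45.

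Dmd has promoters upstream and within the gene, as background. The RefSeq promoter table (GRCm38.p6) holds 2 Dmd windows, each running from 250 bases before to 50 after a start. They are shown because Dmd has 1 value here, and which transcripts it measures was not examined. Capitals mark 3 motifs searched on both strands: the E-box CANNTG, which muscle-forming basic helix-loop-helix factors bind, the GC box GGGCGG with its reverse complement CCGCCC, which Sp factors bind, and the CArG box, which serum response factor binds. The more upstream of the 2 windows, chrX:82948620-82948919 on the plus strand, has 3 E-boxes and 1 CArG box. The first base of that CArG box lies 98 bases before the start. This window lies within the gene, whose span begins at 82814664, so upstream here means relative to the other window. The window further downstream, chrX:85048045-85048344 on the plus strand, has 3 GC boxes, of which the last 2 overlap, and neither of the other motifs.
Dmd upstream start: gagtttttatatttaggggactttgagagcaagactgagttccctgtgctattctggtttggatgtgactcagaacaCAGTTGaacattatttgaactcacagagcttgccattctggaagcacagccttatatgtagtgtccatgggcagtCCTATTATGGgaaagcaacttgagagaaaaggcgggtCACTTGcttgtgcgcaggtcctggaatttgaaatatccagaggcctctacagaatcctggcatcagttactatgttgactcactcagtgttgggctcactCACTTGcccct
Dmd downstream start: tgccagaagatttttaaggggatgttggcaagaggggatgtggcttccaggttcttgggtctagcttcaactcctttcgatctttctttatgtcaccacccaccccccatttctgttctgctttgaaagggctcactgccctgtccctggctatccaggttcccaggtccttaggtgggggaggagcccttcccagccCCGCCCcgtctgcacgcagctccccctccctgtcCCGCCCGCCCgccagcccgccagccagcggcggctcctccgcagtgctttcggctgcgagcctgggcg
Of all 32851 windows in that table, 72.3% held an E-box, 35.7% a GC box and 1.63% a CArG box. These matches describe the letters of the windows, and the arrays do not tell which start gave the signal.

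Utrn showed the same order of arrays as Dmd at its extremes. Utrn measured 9.25, 9.36 and 9.21 on the anti-CD25 1, 2 and 3 arrays, against 9.33, 9.27 and 9.32 on the rat IgG 1, 2 and 3 arrays. The groups overlapped, with anti-CD25 2 highest and anti-CD25 3 lowest of all 6. The difference was -0.036 (SE 0.080, 95% interval -0.22 to 0.14, limma adjusted p = 0.9307), between means of 9.27 ± 0.078 with anti-CD25 and 9.31 ± 0.031 with rat IgG (SD, n = 3 each). It was 0.0040 in the high-Xist arrays and -0.12 between the low-Xist pair, and it was -0.0028 without anti-CD25 3. As a fold, the Utrn interval ran from 0.860 to 1.11.

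Likeness of profile was measured as the root mean square difference of 2 genes' log2 values over the 6 arrays, each gene taken relative to its own mean. By this measure Utrn was the closest to Dmd among the other 7 genes, at 0.029 log2 units, and stood 20th in closeness among all genes. Seen from Utrn, Dmd stood 76th, and Nos1 was the farthest of the 7 at 0.10. The genes closest to Dmd were Kif1c, a kinesin motor, at 0.015, Tmc7, a transmembrane channel-like gene, at 0.018, and Kdm5b, a histone H3 lysine demethylase, at 0.021. Those closest to Utrn were Ppp2r3a, a regulatory subunit of protein phosphatase 2A, at 0.012, Arfip2, which binds Arf and Rac GTPases, at 0.015, and Hscb, a co-chaperone of iron-sulfur cluster assembly, at 0.015. The measure favours genes of small spread: the root mean square deviation of Dmd itself was 0.074 and that of Utrn 0.052. These are descriptions over 6 arrays that share one normalization.

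Dystroglycan, the laminin receptor at the centre of the complex, was lower on all 3 anti-CD25 arrays by a small amount. Dag1 measured 11.06, 11.09 and 11.04 on the anti-CD25 1, 2 and 3 arrays, against 11.11, 11.18 and 11.19 on the rat IgG 1, 2 and 3 arrays. The groups did not overlap, and the gap between the nearest arrays, anti-CD25 2 and rat IgG 1, was smaller than the SD of the rat IgG group. The difference was -0.098 (SE 0.075, 95% interval -0.27 to 0.073), or 0.934-fold, and did not pass (limma adjusted p = 0.7869, two-sided exact permutation p = 0.1, the smallest that 3 against 3 allows). Means were 11.06 ± 0.025 with anti-CD25 and 11.16 ± 0.043 with rat IgG (SD, n = 3 each). The sign held among high-Xist arrays (-0.072) and between the low-Xist pair (-0.15), and without each array in turn the difference ran from -0.12 to -0.084.

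Alpha-sarcoglycan, the subunit made almost only in striated muscle, had the largest difference of the 8 genes. Sgca measured 11.04, 11.08 and 10.91 on the anti-CD25 1, 2 and 3 arrays, against 11.11, 11.27 and 11.18 on the rat IgG 1, 2 and 3 arrays. No anti-CD25 array reached the lowest rat IgG array, and anti-CD25 3 lay lowest. Means were 11.01 ± 0.088 with anti-CD25 and 11.19 ± 0.082 with rat IgG (SD, n = 3 each), a difference of -0.18 (SE 0.086, 95% interval -0.37 to 0.020), or 0.885-fold. It did not pass limma's test (adjusted p = 0.7496, unadjusted p = 0.0732), and a two-sided exact permutation over arrays gave p = 0.1, again the smallest possible. Of all genes, 9.59% had a smaller unadjusted p. Among high-Xist arrays Sgca differed by -0.13, between the low-Xist pair by -0.27, and without anti-CD25 3 by -0.13.

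Dag1 and Sgca were thus the 2 of 8 genes whose groups did not overlap, both lower with anti-CD25. Over all genes 7.46% lay entirely lower, 4.28% entirely higher, and 11.7% did not overlap in either direction. Their promoter windows are shown because these genes had the 2 largest differences. The Sgca window, chr11:94976278-94976577 on the minus strand, has 2 E-boxes and no GC or CArG box. The window of the upstream of 2 Dag1 starts, chr9:108263909-108264208 on the minus strand, has 1 E-box and 3 GC boxes. Capitals mark these motifs as above, and both sequences come from RefSeq (GRCm38.p6).
Sgca start: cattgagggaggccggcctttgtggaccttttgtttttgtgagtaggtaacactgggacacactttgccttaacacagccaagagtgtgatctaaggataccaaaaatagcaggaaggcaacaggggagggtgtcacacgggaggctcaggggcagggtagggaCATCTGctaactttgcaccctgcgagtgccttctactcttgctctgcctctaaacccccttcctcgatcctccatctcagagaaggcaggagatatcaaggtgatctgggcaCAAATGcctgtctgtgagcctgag
Dag1 upstream start: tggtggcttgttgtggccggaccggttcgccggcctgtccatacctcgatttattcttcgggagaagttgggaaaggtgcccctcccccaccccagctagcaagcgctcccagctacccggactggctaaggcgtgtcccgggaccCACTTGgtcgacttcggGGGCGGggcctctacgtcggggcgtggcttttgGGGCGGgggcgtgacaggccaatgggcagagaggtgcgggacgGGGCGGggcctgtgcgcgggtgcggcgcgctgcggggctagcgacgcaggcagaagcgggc
All 8 genes matched the promoter table, with 11 windows, of which 8 held an E-box, 5 a GC box and 1 a CArG box.

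In Sgcb and Sgcd, the other sarcoglycans among the 8, the groups overlapped. Sgcb, which encodes beta-sarcoglycan of the core subcomplex, measured 11.19, 11.40 and 11.23 on the anti-CD25 1, 2 and 3 arrays, against 11.34, 11.35 and 11.32 on the rat IgG 1, 2 and 3 arrays. The 3 rat IgG arrays had an SD of 0.014 around their mean of 11.34, while anti-CD25 2 lay above them and anti-CD25 1 and 3 below. The difference was -0.065 (SE 0.085, 95% interval -0.26 to 0.13, limma adjusted p = 0.8747), and it was -0.022 without anti-CD25 1 and -0.13 without anti-CD25 2.

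Sgcd, which encodes delta-sarcoglycan and is also expressed in smooth muscle, measured 10.41, 10.48 and 10.38 on the anti-CD25 1, 2 and 3 arrays, against 10.46, 10.28 and 10.43 on the rat IgG 1, 2 and 3 arrays. Rat IgG 2 was the lowest of the 6 and anti-CD25 2 the highest, with the rest mixed between them. The difference of 0.032 (SE 0.084, 95% interval -0.16 to 0.22, limma adjusted p = 0.9438) turned to -0.022 without rat IgG 2 and was -0.049 between the 2 arrays with low Xist.

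Sarcospan and neuronal nitric oxide synthase differed least. Sspn, a membrane protein with 4 membrane-spanning segments that binds the sarcoglycans, measured 9.87, 10.09 and 9.93 on the anti-CD25 1, 2 and 3 arrays, against 9.88, 9.96 and 10.03 on the rat IgG 1, 2 and 3 arrays. The anti-CD25 arrays spanned the whole rat IgG range. The difference was 0.0079 (SE 0.089, 95% interval -0.20 to 0.21, limma adjusted p = 0.9892), and its sign turned to -0.019 after a second quantile normalization, to -0.092 between the arrays with low Xist, to -0.055 without anti-CD25 2 and to -0.028 without rat IgG 1.

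Nos1, whose product makes the nitric oxide that widens vessels of working muscle, was the one gene of the 8 not above the upper quartile of every array. Nos1 measured 8.31, 8.24 and 8.07 on the anti-CD25 1, 2 and 3 arrays, against 8.10, 8.32 and 8.21 on the rat IgG 1, 2 and 3 arrays. The groups were intermixed. The difference was -0.0050 (SE 0.097, 95% interval -0.22 to 0.21, limma adjusted p = 0.9932), with 0.061 among high-Xist arrays and -0.14 between the low-Xist pair. Leaving out anti-CD25 3 gave 0.062, leaving out rat IgG 2 gave 0.051, and median centring of the arrays turned the sign, to 0.0025.

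**Figure D2:**
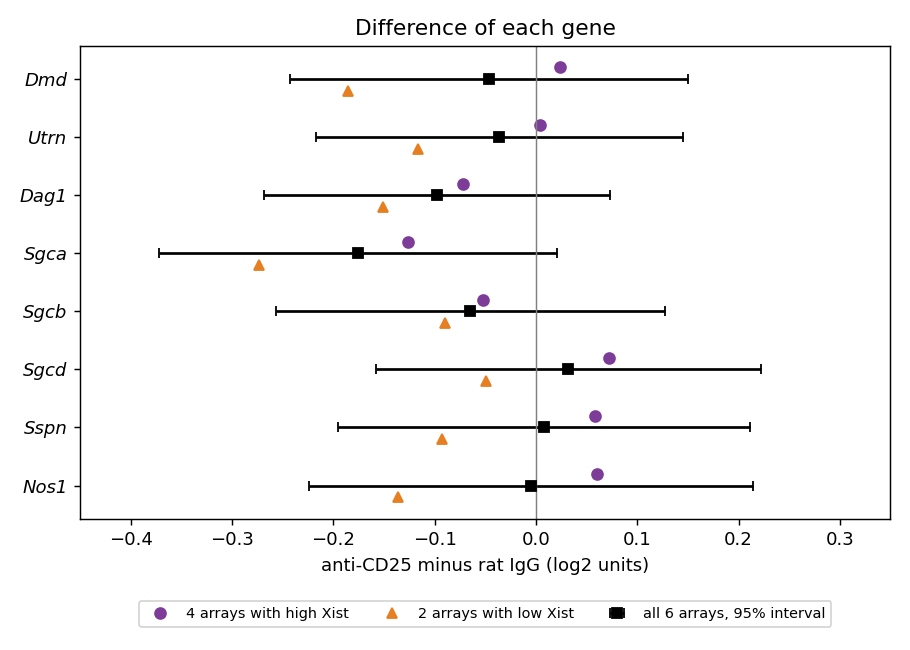
Difference of each gene, anti-CD25 minus rat IgG, in log2 units (horizontal axis). Squares with bars are all 6 arrays with limma's moderated 95% interval, circles the 4 arrays with high Xist and triangles the difference between the 2 arrays with low Xist. Every interval spans 0, and the triangle lies left of the circle for all 8 genes.

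Single arrays held the extremes of several genes at once. Anti-CD25 3 was below the gene's mean over the 6 arrays in 8 of 8 genes and was the lowest array for 5 of them, Dmd, Utrn, Dag1, Sgca and Nos1. Anti-CD25 2 was the highest array for 5, Dmd, Utrn, Sgcb, Sgcd and Sspn. Anti-CD25 3 lay below rat IgG 3, the other array with low Xist, in 8 of 8 genes. The share of all genes lower there is not given here. The upper quartile over all probe sets was also lower, at 8.701 on anti-CD25 3 against 8.765 on rat IgG 3. That quartile was highest on anti-CD25 2, at 8.773. Within the 4 arrays with high Xist, 5 genes were higher and 3 lower with anti-CD25. The change of effect between the Xist classes, an interaction term in limma, did not pass for any of the 8 genes (smallest adjusted p = 0.5783, smallest unadjusted p = 0.252), with 1 array per treatment in the low class. Over all genes 8 (0.0405%) passed this term, and 3841 (19.4%) had an unadjusted p under 0.05. Without anti-CD25 2 the groups did not overlap in 5 of the 8 genes, Dmd, Utrn, Dag1, Sgca and Sgcb, all lower. There 21.2% of all genes, counted in both directions, did not overlap. The array left out was the highest for Dmd, Utrn and Sgcb, so its removal favours their separation and the 2 shares are not alike.

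**Figure D3:**
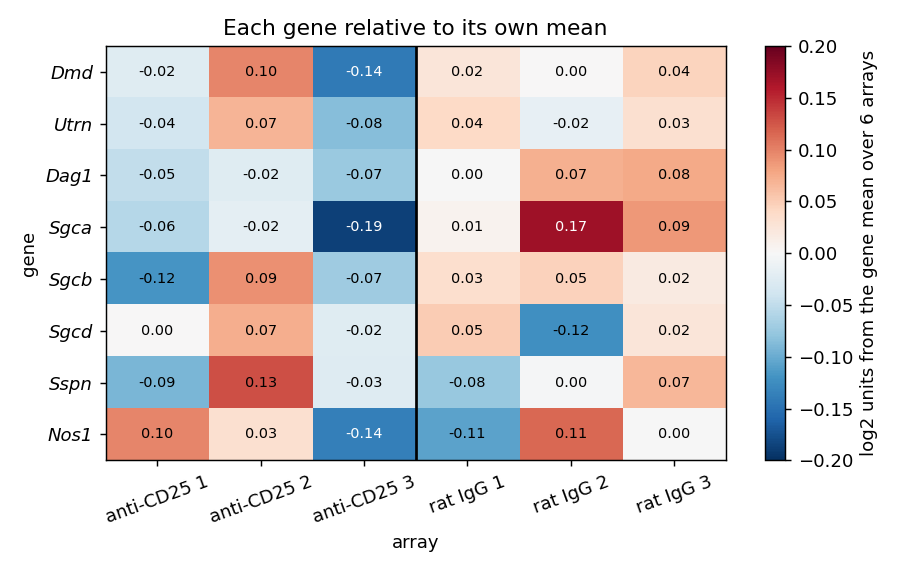
Log2 value of each gene (rows) on each array (columns, anti-CD25 left of the line and rat IgG right of it) relative to the gene's mean over the 6 arrays. The anti-CD25 3 column is negative in all 8 rows, and the Dmd and Utrn rows have their extremes on the same 2 arrays.

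Macrophage markers had higher means in the anti-CD25 group, though none passed the test, while muscle fibre markers differed little. The macrophage list was higher in 8 of 8 genes with a median difference of 0.30, and 0 of 8 passed limma's adjusted test. Of all genes, 58.9% were lower. The macrophage median ran from 0.21 without rat IgG 2 to 0.44 without anti-CD25 2. Between the low-Xist pair, C1qa (9.70 against 9.72) and Itgam (9.40 against 9.50) were lower with anti-CD25, and the rest of the list was higher. The summed intensity of the macrophage list ran from 13670 to 18567 on the anti-CD25 arrays and from 11327 to 14054 on the rat IgG arrays, so the groups overlapped. The muscle fibre list, from Acta1 (skeletal actin) to Ttn (titin), was lower in 6 of 8 genes with a median of -0.016 (0.0024 in the high-Xist arrays), and its summed intensity ran from 77486 to 80203 with anti-CD25 and from 79040 to 81388 with rat IgG. It was lowest on anti-CD25 3, as were Dag1 and Sgca, and also Dmd, Utrn and Nos1, whose groups overlapped. The part of either list in the Dag1 and Sgca differences was not tested. In whole muscle, fewer cells of a type and less RNA per cell cannot be told apart.

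None of the other genes of the complex and its partners passed the test, although some, among them Sgcz, Ppargc1a and Ets2, had larger differences than any of the 8 genes. Of 18 measured genes among the other complex members, 13 were lower and 5 higher, with a median of -0.053 (-0.034 without rat IgG 2), and 0 passed. Sgcz, the zeta-sarcoglycan, measured 5.30, 5.34 and 5.34 on the anti-CD25 1, 2 and 3 arrays, against 5.67, 5.72 and 5.71 on the rat IgG 1, 2 and 3 arrays. The groups were apart by more than their spread, with a difference of -0.38 (SE 0.074, limma adjusted p = 0.7496, unadjusted p = 0.000696), but these values lie near the lower quartile of the arrays, 5.68 to 5.85 log2 units, and the difference was -0.30 after a second quantile normalization. Sntb2, a syntrophin that docks signalling proteins to dystrophin and utrophin, differed by 0.19 (unadjusted p = 0.0766), and Synm, the intermediate filament protein synemin, by -0.17 (unadjusted p = 0.109). Their groups overlapped. Sntb2 turned to -0.041 between the 2 arrays with low Xist, and Synm was -0.096 without anti-CD25 1.

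The enzymes that build the laminin-binding sugar on dystroglycan had 10 of 14 measured genes lower and a median of -0.045, and 0 passed. That median was 0.0015 in the high-Xist arrays and -0.012 without anti-CD25 3. B4gat1, which primes that sugar chain, differed by 0.14 with no overlap between groups (unadjusted p = 0.103), while Gmppb, which makes GDP-mannose, differed by -0.12 and Pomt1, which adds the first mannose, by -0.10. Without rat IgG 3 Gmppb differed by -0.049 and Pomt1 by -0.050, and in the high-Xist arrays by -0.064 and -0.034. Matrix ligands of dystroglycan had 8 of 11 genes lower and a median of -0.062 (-0.015 in the high-Xist arrays, -0.032 without rat IgG 3), again with 0 past the test. Lamb2, the laminin beta 2 chain enriched at the neuromuscular junction, measured 10.01, 10.05 and 9.91 on the anti-CD25 1, 2 and 3 arrays, against 10.07, 10.20 and 10.19 on the rat IgG 1, 2 and 3 arrays, without overlap. Its difference was -0.16 (unadjusted p = 0.0814), beside -0.15 for Hspg2, which encodes perlecan, and -0.12 for Lama1. In the high-Xist arrays Lamb2 and Hspg2 differed by -0.10 and -0.082, and between the low-Xist pair by -0.29 and -0.28. Lama1 differed by 0.13 between the arrays with low Xist and by -0.19 without rat IgG 3 and -0.070 without rat IgG 1.

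Among nitric oxide partners 5 of 9 genes were lower, with a median of -0.068. The median rested on single arrays, being 0.0015 without anti-CD25 1 and -0.14 without anti-CD25 2. Nos2, the inducible synthase of activated macrophages, differed by -0.24 (SE 0.087, unadjusted p = 0.0223) and Gucy1a1 and Gucy1b1, the subunits of the nitric oxide receptor guanylate cyclase, by -0.25 and -0.17. None of the 3 passed adjusted over all genes (limma adjusted p = 0.7496 each). Nos2 lay between 6.46 and 6.88, below the median of every array. Its difference was -0.15 among high-Xist arrays and -0.42 between the low-Xist pair. Gucy1a1 differed by -0.15 without anti-CD25 3 and by -0.16 without rat IgG 1. The costamere and integrin list, a second link from actin to laminin, had 6 of 11 genes lower and a median of -0.015. This median had no stable sign, being 0.031 in the high-Xist arrays, 0.037 without rat IgG 3 and -0.062 without rat IgG 1. Itga7, the laminin-binding integrin of muscle fibres, differed by -0.15 (unadjusted p = 0.103) with no overlap, and Itgb1bp2 (melusin) and Ilk (integrin-linked kinase) by -0.11 and -0.086. Melusin was -0.16 without anti-CD25 1 and -0.053 without anti-CD25 3. In the high-Xist arrays Itga7, melusin and Ilk differed by -0.11, -0.041 and -0.041. Between the low-Xist pair they differed by -0.23, -0.23 and -0.18.

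Regulators of utrophin transcription split most widely, with 6 of 12 genes higher, 6 lower and a median of -0.0058 (0.033 in the high-Xist arrays, 0.040 without anti-CD25 3), while Utrn itself overlapped between groups. Ppargc1a, the coactivator PGC-1 alpha of oxidative muscle, measured 9.65, 9.90 and 9.94 on the anti-CD25 1, 2 and 3 arrays, against 9.32, 9.48 and 9.26 on the rat IgG 1, 2 and 3 arrays. All anti-CD25 arrays were above all rat IgG arrays, and the difference was 0.48 (SE 0.10, 95% interval 0.24 to 0.71), or 0.64 as the mean of its 2 probe sets. The difference of 0.48 became 0.38 among high-Xist arrays and 0.68 between the low-Xist pair. Ets2, a transcription factor of the Ets family, measured 9.63, 9.70 and 9.38 on the anti-CD25 1, 2 and 3 arrays, against 9.75, 9.99 and 10.02 on the rat IgG 1, 2 and 3 arrays. The anti-CD25 arrays were all lower, with a difference of -0.35 (SE 0.11), which was -0.20 among high-Xist arrays and -0.64 between the low-Xist pair. Gabpb2, a subunit of the GABP factor family, differed by 0.14. The unadjusted p was 0.00133 for Ppargc1a, 0.0137 for Ets2 and 0.104 for Gabpb2, and limma's adjusted p was 0.7496 for each, so none passed.

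**Figure D4:**
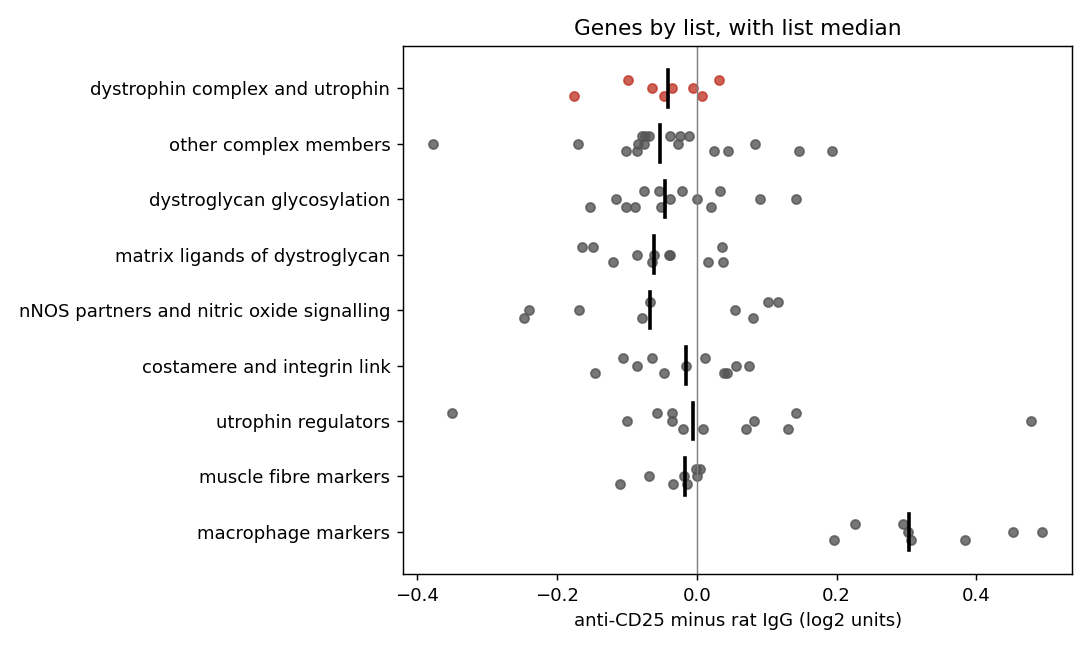
Difference of each gene, anti-CD25 minus rat IgG, in log2 units (horizontal axis), by list (rows), with the list median as a vertical bar. The 8 genes of the dystrophin complex and utrophin lie between -0.18 and 0.032, and the widest values among their partners are Sgcz at -0.38, Ets2 at -0.35 and Ppargc1a at 0.48, none past the adjusted test.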

How the data were processed

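Muscle RNA of the 6 samples was hybridised to 1 Affymetrix array each. The authors deposited an intensity per probe set, on a linear scale, made by RMA in Affymetrix Power Tools per the submitters' processing notes; tool versions were not given. RMA draws dim values together, which understates their differences, and levels of different probe sets are not compared.

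Of 24922 probe sets, 21425 carried 1 symbol in the platform's annotation, 1399 several and 2098 none; 21347 matched the GRCm38.p6 gene table by Entrez identifier. The probe set with the highest mean stood for a gene, with no intensity filter. Some listed partner genes are not analysed here. Log2 was taken because the deposited values are linear, as planned for that case. The log2 values were fitted with limma 3.58.1 in R 4.3.3 (group only, two-sided), adjusted by Benjamini-Hochberg over 19752 genes at 0.05. The fit was tested on simulated data.

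Members and lists were chosen with earlier results of these data known, and no set test was run. Besides the 8 genes, the text names from each partner list the genes past the test or, where none passed, the 3 with the smallest unadjusted p, and the 3 genes closest to Dmd and to Utrn. High Xist means above 8 log2 units. Title numbers were not taken as pairs in the main fit. Same-numbered arrays of both groups deviated from their group means with correlations of 0.030, -0.0067 and -0.17 across genes. Differently numbered arrays gave -0.20 to 0.15, so these values cannot exclude pairing. Both arrays numbered 3 were low in Xist, and the others were high. Alternatives were another quantile normalization, centring on the median, a robust fit with variance trend, weighting of arrays, intensity filters (30th and 50th percentile), averaging of probe sets, title number or Xist class as a block, either Xist class alone, and leaving out each array. Marker lists covered muscle fibres, macrophages, endothelium, fibroblasts, Schwann cells, smooth muscle, adipocytes and T cells.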

Additional observations from a re-analysis of the deposited data

How the results depend on the processing

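Of 17 alternatives, 6 leave the 8 differences as they are by construction: the robust fit, both filters, the mean of probe sets (1 per member) and both blocks, which are balanced. Under the other 11 the 8 genes gave 88 values, of which 74 kept their direction. Of the 8 genes 0 passed under any alternative with a test, which the low-Xist pair does not give (smallest adjusted p = 0.404, for Sgca without rat IgG 3). Dag1, Sgca and Sgcb kept their sign in those 11. With the title number as a replicate block no member passed; the median difference of -0.041 cannot change there. The sign turned for Sspn after a second quantile normalization (-0.019), for Nos1 after median centring (0.0025) and with array weights (0.022), and within the 4 arrays with high Xist for Dmd (0.023), Utrn (0.0040) and Nos1 (0.061). Between the 2 arrays with low Xist it turned for Sgcd (-0.049), Sspn (-0.092), Sntb2 (-0.041) and Lama1 (0.13), and the median of the 8 genes was -0.13. With each array left out, the number of the 8 genes without overlap ran from 2 to 5. The share of all genes without overlap ran from 15.9% (without rat IgG 2) to 33.8% (without rat IgG 3). It was 11.7% with all 6 arrays, and fewer arrays separate more easily. In the same fits the median ran from -0.093 to 0.0051, and the number of all genes past the test from 0 to 7, the 7 arising without rat IgG 3. Over those fits Dmd ran from -0.11 to 0.013, Sgcd from -0.022 to 0.065, Sspn from -0.055 to 0.056 and Nos1 from -0.059 to 0.062. The cause of these changes was not tested. The filters at the 30th and 50th percentile removed Sgcz, so it has no value there. The filter at the 50th percentile also removed Gmppb, Lama1, Nos2 and Gucy1b1. Signal over background limits dim genes such as Sgcz, while the 8 genes lay above every array's median.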

Other observations

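Markers of other cells in the muscle showed no gene past limma's adjusted test, in lists of 3 to 5 genes. Endothelial markers had a median difference of -0.10 (-0.041 without anti-CD25 1), with Kdr, the main receptor for vascular endothelial growth factor, lowest at -0.27. Smooth muscle markers, from a tissue that also makes Sgcb, Sgcd and Sspn, had a median of 0.089 (0.016 without anti-CD25 2), with Cnn1 (calponin) highest at 0.20. Schwann cell markers, from cells that also carry dystroglycan and utrophin, had 3 of 3 measured genes lower and a median of -0.11, which was 0.013 without rat IgG 2. Fibroblast markers had a median of 0.0040, adipocyte markers 0.058 and T cell markers -0.033 (-0.14 without rat IgG 3). The fibroblast median turned to -0.024 without rat IgG 2. The adipocyte median ran from -0.030 to 0.22 and the Schwann median from -0.27 to 0.013 as single arrays were left out.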
